A study of Mus musculus with 12 samples.

Results

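The 9 genes described here make, load, take back or mark the inhibitory and modulatory transmitters of the inner retina: Gad1, Gad2, Slc32a1, Slc6a11, Slc6a9, Th, Chat, Slc18a3 and Calb2. They were chosen by symbol and not by any measured value, and each matched 1 of the 56748 rows of the scaled count table. The libraries came from retinas of mice aged 2 months. All mice, controls included, carried RiboTag, a ribosomal protein that gains an HA tag in cells with Cre, and i75-Rod-Cre, a rhodopsin promoter that drives Cre in rods. The controls were littermates with both Abca4 copies (RiboTag;i75-Rod-Cre), and the Abca4 KO mice lacked both (RiboTag; Abca4-/-;i75-Rod-Cre). Abca4 is the transporter that clears retinoid from photoreceptor discs. From each genotype, 3 libraries were made from the retina lysate, called retina here, and 3 from the ribosomes pulled out of it by the tag, called rod TRAP, which gave 12 libraries in 4 groups. The labels do not say whether each library was a separate animal, so the p-values below measure only the spread between libraries, which may be technical.

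GABA and glycine are the fast inhibitory transmitters of the retina and are released mainly by amacrine cells, with horizontal cells as a further source of GABA. Amacrine cells signal onto bipolar terminals, ganglion cells and each other, and small subtypes add dopamine or acetylcholine to GABA. Rods release glutamate and are not known to release any of these transmitters, whereas the lysate holds the cells that do. Gad1 and Gad2 encode the glutamate decarboxylases that make GABA. Slc32a1 loads GABA and glycine into synaptic vesicles, Slc6a11 takes GABA back from the extracellular space, and Slc6a9 takes back glycine. Th is the rate-limiting enzyme of dopamine synthesis, Chat makes acetylcholine, and Slc18a3 loads it into vesicles. Calb2 encodes calretinin, a calcium-binding protein of many amacrine and ganglion cells.

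RefSeq (GRCm38.p6) gave a promoter window for 8 of the 9 genes and not for Calb2, and Slc6a9 had 3 windows, 1 for each start. The 250 bases before each start were searched on both strands for 4 sets of letters. The core bound by the photoreceptor factor CRX, TAATCC, was in 6.25% of the 32851 windows of all genes and, of these 10 windows, in that of Gad1. The cAMP response element TGACGTCA was in 1.55% of all windows and in that of Th, and the TATA box letters TATAAA were in 12.4% and in that of Gad1. The GC box GGGCGG was in 32.7% and in 5 of the 10, those of Gad1, Th, Slc6a11, Slc18a3 and the first start of Slc6a9. The stretches below are parts of the windows, at most 150 bases each, that overlapped no annotated exon. They are shown for Gad1, Th and Slc6a11 as examples of windows with these letters, in capitals on either strand with no match overlapping another, and for the third start of Slc6a9, which holds none, because that gene was the member with the smallest difference between the fractions. The GC boxes of the Gad1 and Th windows lie outside the stretches shown. All these matches describe letters only and were not related to binding.
Gad1, chr2:70561892-70562041, plus strand: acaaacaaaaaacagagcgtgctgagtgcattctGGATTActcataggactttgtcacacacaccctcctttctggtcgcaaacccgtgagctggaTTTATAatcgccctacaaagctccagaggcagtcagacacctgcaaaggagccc
Slc6a11, chr6:114131091-114131240, plus strand: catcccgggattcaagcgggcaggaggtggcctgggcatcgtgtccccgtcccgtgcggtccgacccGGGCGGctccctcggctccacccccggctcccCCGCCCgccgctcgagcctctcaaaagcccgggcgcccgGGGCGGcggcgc
Th, chr7:142900015-142900164, minus strand: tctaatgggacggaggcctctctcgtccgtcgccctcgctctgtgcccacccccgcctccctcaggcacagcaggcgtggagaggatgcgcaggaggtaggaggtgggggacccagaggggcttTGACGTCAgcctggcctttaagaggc
Slc6a9, the third start, chr4:117855342-117855491, plus strand: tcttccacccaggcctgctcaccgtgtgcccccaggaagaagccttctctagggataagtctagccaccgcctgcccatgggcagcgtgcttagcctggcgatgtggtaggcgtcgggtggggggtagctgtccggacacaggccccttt

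Several libraries stood apart. Abca4 had 37619 to 61017 scaled counts in the 6 control libraries and 153 to 366 in replicates 1 and 2 of Abca4 KO, but 13156 in the library labelled Abca4 KO rod TRAP replicate 3 and 8124 in the one labelled Abca4 KO retina replicate 3. The summed TPM (the deposited share of transcripts, corrected for gene length) of 5 lens genes reached 9766 in control retina replicate 1, 3867 in Abca4 KO retina replicate 2 and 5596 in replicate 3, against 4.7 to 36.2 in the other 3 retina libraries. Marker genes followed the fractions: all 11 rod markers were higher in rod TRAP in both genotypes, as 36.6% of all genes tested were in control and 30.4% in Abca4 KO. The summed TPM of the rod markers was 83320 to 111500 in retina and 194100 to 220400 in rod TRAP. The 9 Müller glia markers fell from 2824 to 5193 in retina to 92.5 to 143.0 in rod TRAP. A scaled count is the authors' count of reads multiplied by 1 factor per library, so totals were 17096515 to 17097707 in rod TRAP and 17860761 to 17862326 in retina and do not show the sequencing depth.

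In retina the 9 genes spanned a wide range on the TPM scale, which allows levels of different genes to be compared. Calb2 was the highest, with 584.6, 625.3 and 699.7 TPM in the control libraries (replicates 1 to 3, the order used throughout) and 395.0, 605.5 and 565.0 in the Abca4 KO libraries. It made up 60.5% of the summed TPM of the 9 genes in control retina (range 54.8% to 66.0%, n = 3). The transporters and the main decarboxylase formed a middle group in control retina: Slc6a9 at 146.5 TPM, Slc6a11 at 103.3, Gad1 at 86.9 and Slc32a1 at 64.3 (means, n = 3). The ranges of Calb2 and Slc6a9 did not overlap, whereas each neighbour within the middle group overlapped the next. The scarce genes were Slc18a3 at 8.33 TPM, Chat at 6.13, Gad2 at 3.93 and Th at 3.57, and each again overlapped its neighbour, while none reached the range of Slc32a1. Chat lay below Slc18a3 in 3 of 3 control libraries, and their TPM ratio was 0.749 ± 0.198 (SD, n = 3) in control and 0.888 ± 0.283 in Abca4 KO. In the GENCODE M21 annotation of GRCm38 the whole of Slc18a3 lies within the span of Chat on the same strand of chromosome 14, with no shared exon bases. Gad1 exceeded Gad2 by a TPM ratio of 21.9 ± 3.02 in control retina and 16.3 ± 4.77 in Abca4 KO retina, and the ratio was above 1 in 6 of 6 libraries.

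**Figure D1:**
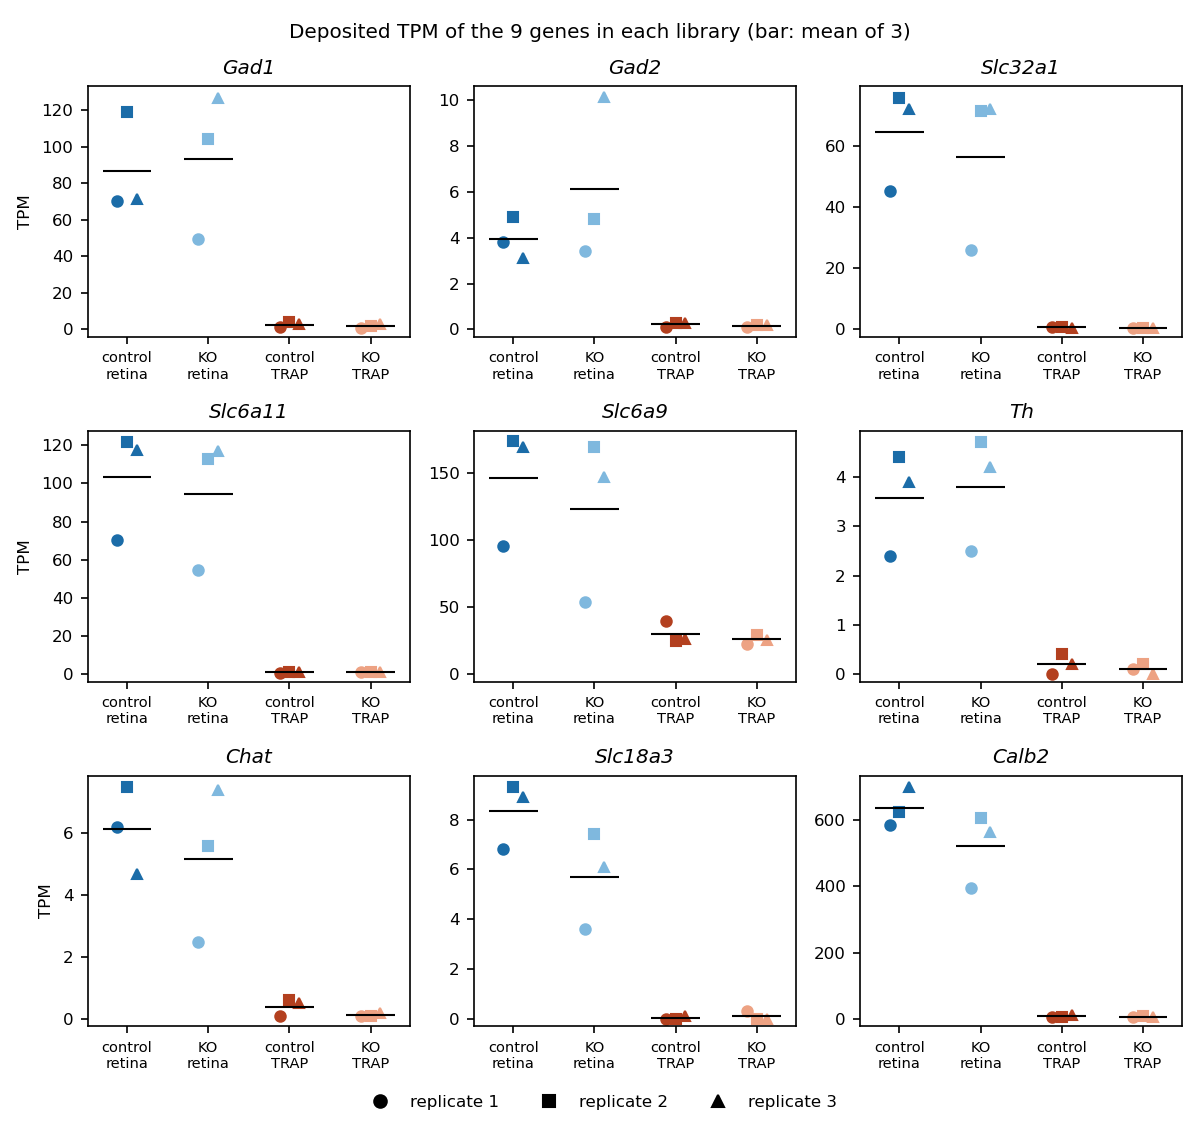
Deposited TPM (y axis, linear, a separate scale for each gene) of the 9 genes in each of the 4 groups (x axis), with symbols for replicates 1 to 3 and a bar for the mean of 3 libraries. For all 9 genes each retina library lay above each rod TRAP library, and replicate 1 was the lowest Abca4 KO retina library throughout.

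The comparison of rod TRAP with retina asked how the level of each gene, relative to its library, differed between the fractions. It does not give the part of a message that was on tagged ribosomes. All 9 genes were lower in rod TRAP in control mice at a limma adjusted p under 0.05, where 38.8% of all genes tested were lower and 36.6% were higher. In Abca4 KO mice all 9 were again lower, against 33.7% of all genes, with 30.4% higher. Each rod TRAP library lay under each retina library for all 9 genes in both genotypes, which held for 62.4% of genes tested in control and 55.3% in Abca4 KO. Gad2, Slc32a1, Th, Chat and Slc18a3 did not reach 10 scaled counts in all 3 rod TRAP libraries of either genotype and passed the filter through retina alone, so for them a difference was required and the count of 9 is no support. Gad1, Slc6a11, Slc6a9 and Calb2 passed in rod TRAP as well.

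For the enzymes of GABA synthesis, Gad1 had 35, 62 and 71 scaled counts in control rod TRAP against 2581, 3900 and 2591 in control retina, while Abca4 KO gave 28, 51 and 27 against 1923, 3623 and 4170. The highest rod TRAP library of either genotype was thus far under the lowest retina library. On the log2(CPM + 0.5) scale, where CPM is the library-scaled value per 1e+06 scaled counts, rod TRAP minus retina was -4.91 ± 0.22 for Gad1 in control (SE, limma adjusted p = 1.07e-09) and -5.63 ± 0.26 in Abca4 KO (6.4e-08). Gad2 had 6, 14 and 15 scaled counts in control rod TRAP and 243, 306 and 224 in control retina. In Abca4 KO it had 5, 9 and 8 against 249, 323 and 575, the last being the highest Gad2 value of all libraries. Summed over libraries, Gad2 in rod TRAP was 4.73% of its retina level, relative to library totals, in control (95% exact interval 3.27% to 6.64%) and 2.0% in Abca4 KO (1.25% to 3.05%). For Gad1 these shares were 1.93% (1.65% to 2.25%) and 1.14% (0.932% to 1.38%). The intervals treat a scaled count as a count, cover counting error only and not the spread between libraries. All such shares use library totals alone, whereas the log2 differences use the trimmed mean scaling described below. The measures therefore do not convert into each other. With totals alone, the median log2 difference of all genes tested was -0.62 in control and -0.49 in Abca4 KO.

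Slc32a1, the vesicular loader of GABA and glycine, had 16, 16 and 7 scaled counts in control rod TRAP and 10, 8 and 9 in Abca4 KO rod TRAP. The control retina libraries held 1198, 1847 and 1945, and the Abca4 KO retina libraries 728, 1756 and 1718. Its rod TRAP level was 0.817% (0.58% to 1.12%) of that in control retina and 0.671% (0.442% to 0.978%) of that in Abca4 KO retina. Slc6a11, which clears GABA, had 26, 39 and 45 scaled counts in control rod TRAP against 3426, 5297 and 5769 in control retina, a difference of -6.08 ± 0.21 on the log2 scale (limma adjusted p = 2.29e-10). With 0.5 added this was the largest log2 difference among the 9 genes in control, whereas Slc18a3, near 0 in rod TRAP, was lower by share of its retina level and with 0.1 added (-6.39 against -6.28). In Abca4 KO it had 49, 53 and 44 against 2842, 5201 and 5141, a difference of -5.65 ± 0.19 (limma adjusted p = 2.73e-08). Slc6a11 in rod TRAP was 0.793% (0.651% to 0.957%) of its retina level in control and 1.16% (0.976% to 1.36%) in Abca4 KO.

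Slc6a9, the glycine transporter, differed least between the fractions. It had 476, 425 and 431 scaled counts in control rod TRAP and 429, 476 and 410 in Abca4 KO rod TRAP, a narrow range across all 6 libraries. Control retina gave 1651, 2712 and 2897, and Abca4 KO retina 1012, 2670 and 2397. Each retina library still lay above each rod TRAP library. The log2 difference of Slc6a9 was -1.68 ± 0.18 in control (limma adjusted p = 2.24e-06) and -1.47 ± 0.26 in Abca4 KO (0.000432). Its rod TRAP level was 19.2% of that in retina in control (18.1% to 20.3%) and 22.6% in Abca4 KO (21.3% to 24.0%), and no interval of another member reached it. On the TPM scale Slc6a9 was the highest of the 9 genes in rod TRAP, at 30.2 in control and 26.1 in Abca4 KO, with no overlap with Calb2, the next at 8.1 and 6.67. It held 68.6% of the summed TPM of the 9 genes in control rod TRAP (60.7% to 79.9%) and 13.6% in control retina (10.8% to 15.2%). In the GRCm38 annotation, exons of Slc6a9 share bases with exons of Ccdc24 and B4galt2 on the opposite strand, and the sources used here do not state whether reads were counted by strand. Ccdc24 had 423, 496 and 450 scaled counts in control rod TRAP and 523, 550 and 477 in control retina, and B4galt2 had 423, 354 and 455 against 1067, 1124 and 1314. The part of these genes in the Slc6a9 values was not tested.

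For dopamine, Th had 0, 1 and 2 scaled counts in control rod TRAP and 1, 2 and 0 in Abca4 KO rod TRAP, against 39, 81 and 80 in control retina and 55, 90 and 74 in Abca4 KO retina. With 3 scaled counts in all 3 libraries of each genotype, the rod TRAP level was 1.57% of that in control retina (0.32% to 4.65%) and 1.43% of that in Abca4 KO retina (0.293% to 4.24%). Th was thus scarce in rod TRAP, and counts at this level give no comparison of the genotypes. The fitted log2 difference of Th, -2.56 ± 0.25 in control, understates the change because 0.5 is added to values near 0.

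For acetylcholine, Chat had 3, 4 and 2 scaled counts in control rod TRAP and 4, 2 and 5 in Abca4 KO rod TRAP. Control retina held 177, 228 and 161 scaled counts of Chat and Abca4 KO retina 85, 182 and 211. Slc18a3 had 0, 0 and 1 in control rod TRAP and 6, 0 and 1 in Abca4 KO rod TRAP, where the 6 stood in replicate 1 alone. Its retina values were 188, 235 and 249 for control and 110, 196 and 155 for Abca4 KO. The level of Chat in rod TRAP was 1.66% of that in control retina (0.756% to 3.18%) and 2.4% of that in Abca4 KO retina (1.19% to 4.34%). For Slc18a3 it was 0.155% (0.00393% to 0.869%) and 1.59% (0.634% to 3.29%), and these intervals overlapped.

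Calb2 had 78, 67 and 118 scaled counts in control rod TRAP and 8690, 8434 and 10516 in control retina. In Abca4 KO it had 81, 95 and 49 against 6337, 8648 and 7640. Its log2 difference was -5.93 ± 0.19 in control (limma adjusted p = 1.84e-10) and -5.95 ± 0.22 in Abca4 KO (2.73e-08), and its rod TRAP level was 0.994% (0.877% to 1.12%) and 1.04% (0.907% to 1.18%) of the retina level. Calb2, the most abundant of the 9 in retina, thus had shares in rod TRAP whose counting intervals overlapped between genotypes. The intervals of Gad1, Gad2, Slc6a11 and Slc6a9 did not overlap between genotypes. Because they leave out the spread between libraries, neither overlap nor its absence compares the genotypes.

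**Figure D2:**
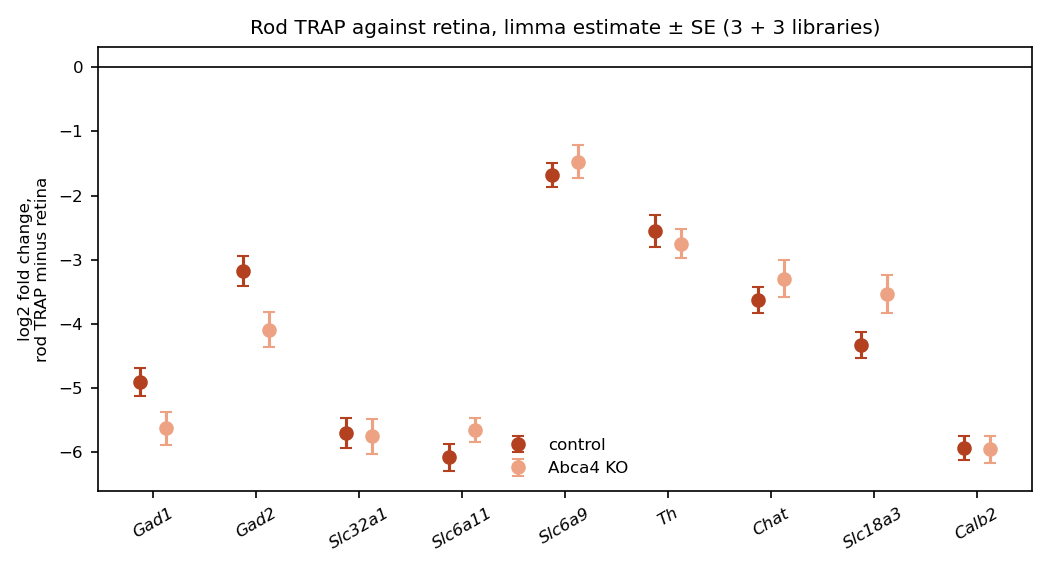
Log2 fold change of rod TRAP minus retina (y axis) for the 9 genes (x axis) in control (dark points) and Abca4 KO (light points), with bars for the limma standard error from 3 and 3 libraries. All estimates lie below 0, from -6.08 for Slc6a11 to -1.68 for Slc6a9 in control.

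Markers of other cell types were counted beside the 9 genes. Of 8 amacrine marker genes, 7 were lower in rod TRAP and 1, Meis2, was higher by the limma fit in both genotypes. Of all genes tested, 38.8% were lower in control and 33.7% in Abca4 KO. Relative to library totals alone, Meis2 in Abca4 KO rod TRAP was at 97.4% of retina (93.7% to 101%), so its direction there depended on the scaling. None of the 8 was at 0 in all rod TRAP libraries. In each genotype 5 of the 8 passed the filter through retina alone, so their lower value was required. Their summed TPM was 179.6 to 362.6 in retina and 64.8 to 84.1 in rod TRAP, of which Meis2 alone gave 74.4 TPM in control rod TRAP. The summed TPM of the 9 transmitter genes was 590.9 to 1151 in retina and 32.8 to 49.8 in rod TRAP, or 3.34% to 5.62% in control and 3.38% to 5.55% in Abca4 KO of the retina library with the same number. For 9 ganglion cell markers these shares were 1.19% to 1.76% and 1.2% to 1.97%, for 9 Müller glia markers 1.98% to 2.84% and 2.19% to 5.06%, and for 9 bipolar markers 4.32% to 6.84% and 4.32% to 8.24%. Prkca, the bipolar marker that was higher in rod TRAP, gave 72.2 of the 92.7 TPM of that sum in control rod TRAP, and the other 8 bipolar markers were at 1.06% to 1.32% of retina in control and 1.01% to 2.31% in Abca4 KO. The 7 amacrine markers other than Meis2 were at 3.05% to 5.25% and 2.62% to 3.83%. Slc6a9 gave 30.2 of the mean 43.57 TPM of the 9 transmitter genes in control rod TRAP and 26.07 of 36.97 in Abca4 KO. The shares of their sum thus rest mostly on Slc6a9. By mean TPM it was at 20.6% of control retina, whereas Calb2, the largest part of their retina sum, was at 1.27%. Between bulk retina libraries, fewer cells of a type and less message per cell cannot be told apart. The source of the marker message found in rod TRAP was not tested. Without the 2 replicate 3 libraries of Abca4 KO that held Abca4, all 9 genes were lower in rod TRAP, under a filter loosened after the values were seen. Gad2, Slc32a1, Th, Chat and Slc18a3 passed that filter through retina alone, so their lower value was required and is no support. Gad1, Slc6a11, Slc6a9 and Calb2 passed it in rod TRAP as well, with Slc6a9 at -1.31 (limma adjusted p = 0.00761).

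The comparison of Abca4 KO with control asked whether loss of Abca4 moved these genes. In retina, all 9 genes were tested and 0 passed a limma adjusted p under 0.05, where 0.106% of all genes tested did, and 1 of the 9, Slc18a3, had an unadjusted p under 0.05, as 12.0% of all genes tested had. The Slc18a3 values given above overlapped between the genotypes through Abca4 KO replicate 2, at 196 scaled counts, and control replicate 1, at 188. Its log2 difference was -0.54 (95% interval -1.04 to -0.04, limma adjusted p = 0.40). Gad2 had the largest positive difference at 0.48 (-0.08 to 1.04, limma adjusted p = 0.437), and it was 0.21 without Abca4 KO retina replicate 3, the library with 575 scaled counts and with Abca4. In that library the amacrine and horizontal marker sums were also the highest of the 6, at 362.6 and 29.8 TPM, and the part of this in the Gad2 value was not tested.

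Among the other genes in retina, Gad1 differed by 0.06 (-0.47 to 0.58) between Abca4 KO and control and Th by 0.15 (-0.48 to 0.79). The transporters were nominally lower in Abca4 KO, with Slc32a1 at -0.32 (-0.95 to 0.31), Slc6a11 at -0.15 (-0.68 to 0.38) and Slc6a9 at -0.33 (-1.01 to 0.35). Without Abca4 KO retina replicate 1, the lowest retina library for these 3 genes, their differences were 0.02, 0.06 and 0.03. Chat was at -0.31 (-0.92 to 0.30) and Calb2 at -0.29 (-0.69 to 0.11). For all genes but Gad1 these intervals reach beyond a 1.5-fold difference, so 3 libraries a group could not show whether changes of that size were absent.

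**Figure D3:**
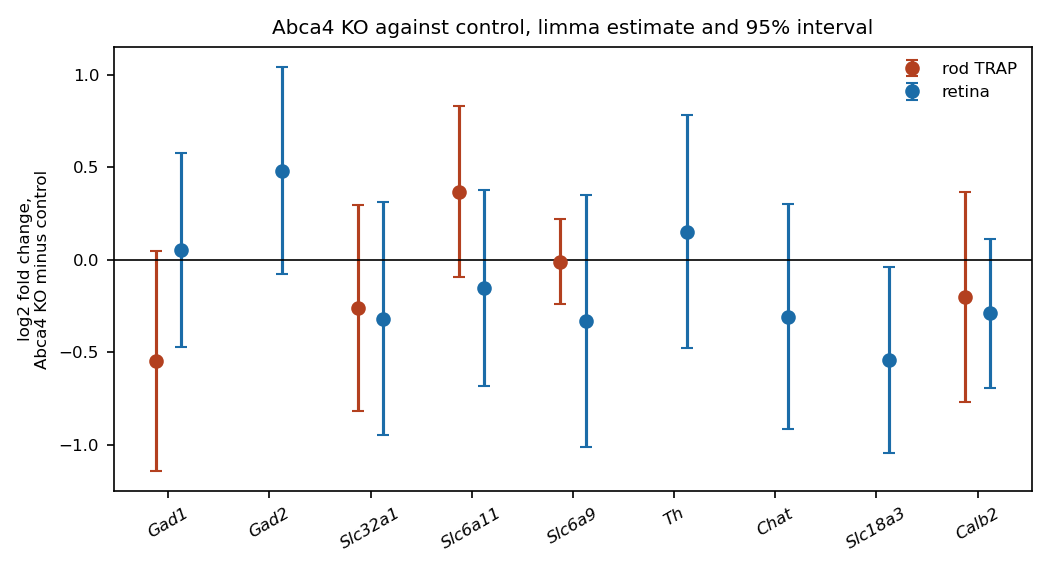
Log2 fold change of Abca4 KO minus control (y axis) for each gene tested (x axis) in rod TRAP (5 genes) and in retina (9 genes), with bars for the 95% interval of the limma estimate. All intervals but that of Slc18a3 in retina (-1.04 to -0.04) include 0, and no gene passed the adjusted threshold.

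In rod TRAP 5 of the 9 genes had enough scaled counts to be tested between genotypes. Of these, 0 passed a limma adjusted p under 0.05 where 1.13% of all genes tested did, and 0 had an unadjusted p under 0.05, where 10.4% did, shares at which 5 genes show little. Gad1 was at -0.55 (95% interval -1.14 to 0.05, limma adjusted p = 0.525) and its scaled counts of 28, 51 and 27 overlapped the control range of 35 to 71. Slc6a11 was at 0.37 (-0.09 to 0.83), with 44 to 53 scaled counts in Abca4 KO and 26 to 45 in control. Slc6a9 had the narrowest interval of the 5, at -0.01 (-0.24 to 0.22). Slc32a1 was at -0.26 (-0.82 to 0.30) and Calb2 at -0.20 (-0.77 to 0.36). Gad2, Th, Chat and Slc18a3 were not tested in rod TRAP because too few libraries reached 10 scaled counts.

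The interaction asked whether the genotype difference differed between the fractions. All 9 genes were tested and 0 passed a limma adjusted p under 0.05, where 0.00579% of all genes tested did. Unadjusted p was under 0.05 for 2 of the 9 and for 11.3% of all genes tested. The 2 were Slc18a3 at 0.84 (95% interval 0.09 to 1.59, limma adjusted p = 0.418) and Gad2 at -0.84 (-1.62 to -0.05, limma adjusted p = 0.423). Both had at most 15 scaled counts in each rod TRAP library, and the Slc18a3 value was 0.57 without Abca4 KO rod TRAP replicate 1, the library with 6 scaled counts. With Abca4 KO replicate 3 left out of both fractions, 0 of the 9 had an unadjusted p under 0.05. This left-out set was chosen after the values were seen.

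Genes that work beside the members were counted in 6 lists in the control fraction comparison. There 38.8% of all genes tested were lower in rod TRAP at a limma adjusted p under 0.05 and 36.6% were higher. Of 9 genes that make, clear or recycle GABA and glycine, 8 were lower in rod TRAP and 1 was higher, 3 having passed the filter through retina alone, with a median log2 difference of -3.78 against -0.03 for all genes tested. Slc38a1, a glutamine carrier, went from 37.7 ± 16.2 TPM in control retina to 7.2 ± 0.6 in control rod TRAP (SD, n = 3), a log2 difference of -2.03 (limma adjusted p = 3.71e-07).

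Of 28 receptor subunits and their scaffold genes, 25 were tested, of which 23 were lower, 1 was higher and 1 was not called, with a median of -2.06. Of the 25, 15 passed the filter through retina alone. Gabrr1, a GABA receptor subunit known from bipolar terminals, was at -5.37 and Nlgn2, an adhesion protein of inhibitory synapses, at -1.32. Gabbr1, a subunit of the metabotropic GABA receptor, was the most abundant of the list, at 99.1 ± 12.5 TPM in retina and 48.3 ± 0.75 in rod TRAP (log2 difference -0.53, limma adjusted p = 0.00162). Gphn, which encodes gephyrin, a scaffold of inhibitory synapses that is also needed for molybdenum cofactor synthesis, was higher in rod TRAP by 1.51 (limma adjusted p = 6.04e-06).

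Of 13 dopamine partners, 10 were tested, with 6 lower, 2 higher and 2 not called, and 2 of the 10 passed the filter through retina alone. Drd2, a dopamine receptor, was at -4.39, and Qdpr, which recycles the cofactor of Th, at -1.27. Drd4, the dopamine receptor of photoreceptors, rose from 174.6 ± 16.8 TPM in retina to 232.5 ± 20.1 in rod TRAP, a log2 difference of 0.84 (limma adjusted p = 0.00019). Pts, which acts in the synthesis of the same cofactor, had a log2 difference of 0.00 and was not called. Slc18a2, the vesicular monoamine transporter, was higher by 1.87 in scaled counts, with 84, 96 and 125 in control rod TRAP and 35, 48 and 29 in control retina, but the TPM table lists it at 0 in all rod TRAP libraries and at 0.43 ± 0.15 in control retina, so the 2 deposited tables disagree on its direction.

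Of 16 acetylcholine partners, 15 were tested, with 12 lower and 3 higher, and 7 of the 15 passed the filter through retina alone. Chrna6 and Chrnb3, nicotinic receptor subunits, were at -5.42 and -4.82, and Ache, the enzyme that breaks down acetylcholine, at -1.58. Chrna5, another nicotinic subunit, was higher by 2.43 (limma adjusted p = 1.21e-07), with 4.47 ± 1.43 TPM in retina and 19.6 ± 0.17 in rod TRAP. The other two that were higher in control, Chrna7 and Chrna3, were named after their values were seen. They were at 0.87 and 0.55 in control and at 0.18 and 0.20 in Abca4 KO, where neither was called, and the TPM of Chrna3 was lower in rod TRAP, at 0.17 ± 0.06 against 3.57 ± 0.40.

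Most genes of amacrine identity that were tested were lower in rod TRAP, but many passed the filter through retina alone, which fixed their direction. All 12 tested of 13 peptide, calcium-binding and subtype genes were lower in rod TRAP, from -5.43 for Penk, an opioid peptide precursor, to -2.60 for Megf11, with Npy at -4.15 and Pvalb at -4.86, although 10 of the 12 passed the filter through retina alone. Of 16 amacrine transcription factors tested, 14 were lower, with 10 of the 16 tested through retina alone, among them Pax6 at -4.00, Tfap2b at -3.84 and Neurod2 at -4.29. Tcf4 and Meis2 were higher, by 1.10 and 1.08, and in Abca4 KO they were at 0.20 (limma adjusted p = 0.359) and 0.50 (0.0247). No gene of the 6 lists passed a limma adjusted p under 0.05 between genotypes in rod TRAP, in retina or in the interaction.

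**Figure D4:**
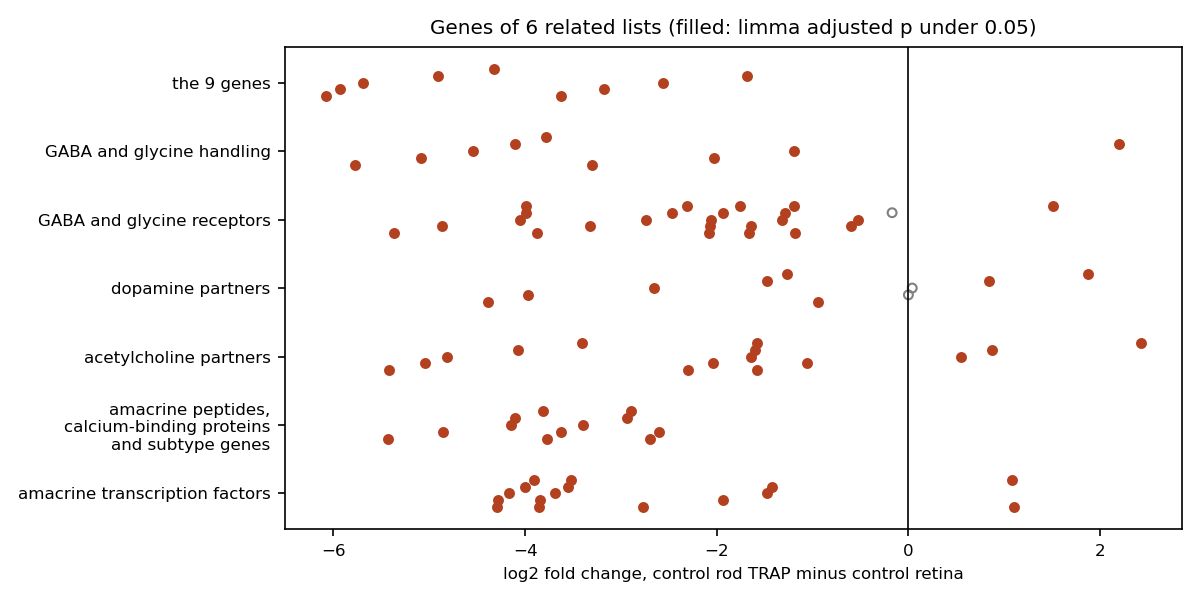
Log2 fold change of control rod TRAP minus control retina (x axis) for each tested gene of the 9 and of 6 related lists (rows, with points shifted vertically for legibility). Filled points passed a limma adjusted p under 0.05 and open points did not. Most points lie left of 0, with Gphn (1.51), Drd4 (0.84), Slc18a2 (1.87), Chrna5 (2.43), Tcf4 (1.10) and Meis2 (1.08) among those to the right.

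The retina libraries differed among themselves in the members. The summed TPM of the 9 genes was 885.7, 1142 and 1151 in the control libraries and 590.9, 1085 and 1056 in the Abca4 KO libraries. Replicate 1 was the lowest of its group in both genotypes, and Abca4 KO retina replicate 1 was at 40.1% to 68.2% of the mean of the 6 libraries for each of the 9 genes. The bipolar markers were at 1271 and 935.6 TPM in the replicate 1 libraries against 1921 to 2123 in the other 4, and the Müller glia markers at 3254 and 2824 against 4642 to 5193. The rod markers were at 102200 and 111200 in the replicate 1 libraries and 83320 to 111500 in the others. The part of these other cell types in the members' values was not tested.

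Not all members followed that order. Slc32a1 and Slc6a9 varied together, with a TPM ratio of Slc6a9 to Slc32a1 of 2.11, 2.3 and 2.36 in control and 2.1, 2.37 and 2.05 in Abca4 KO, although Slc32a1 itself ranged from 25.8 to 75.7 TPM. As a description over the 6 retina libraries, which share depth and composition across genes, Pearson's r on the log2(CPM + 0.5) scale with the mean of the other 8 members was 0.98 for Slc32a1 and Slc6a9, 0.93 for Slc6a11, 0.75 for Chat, 0.71 for Gad1, 0.60 for Slc18a3, 0.53 for Th, 0.31 for Calb2 and 0.02 for Gad2. Gad1, Gad2 and Chat were low in control replicate 3, at 78.9%, 61.8% and 83.2% of their 6-library mean, and high in Abca4 KO replicate 3, at 141%, 201% and 131%. The amacrine and horizontal marker sums had the same pattern, at 71.3% and 72.3% in control replicate 3 and 144% and 146% in Abca4 KO replicate 3. The genes most like the mean profile of the members, among 11760 with at least 5 CPM in retina, were Mdga1 (r = 0.998), Mpp2 (0.996), Klf11 (0.995), Sema5b (0.995) and Csf1 (0.994), over 6 libraries.

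**Figure D5:**
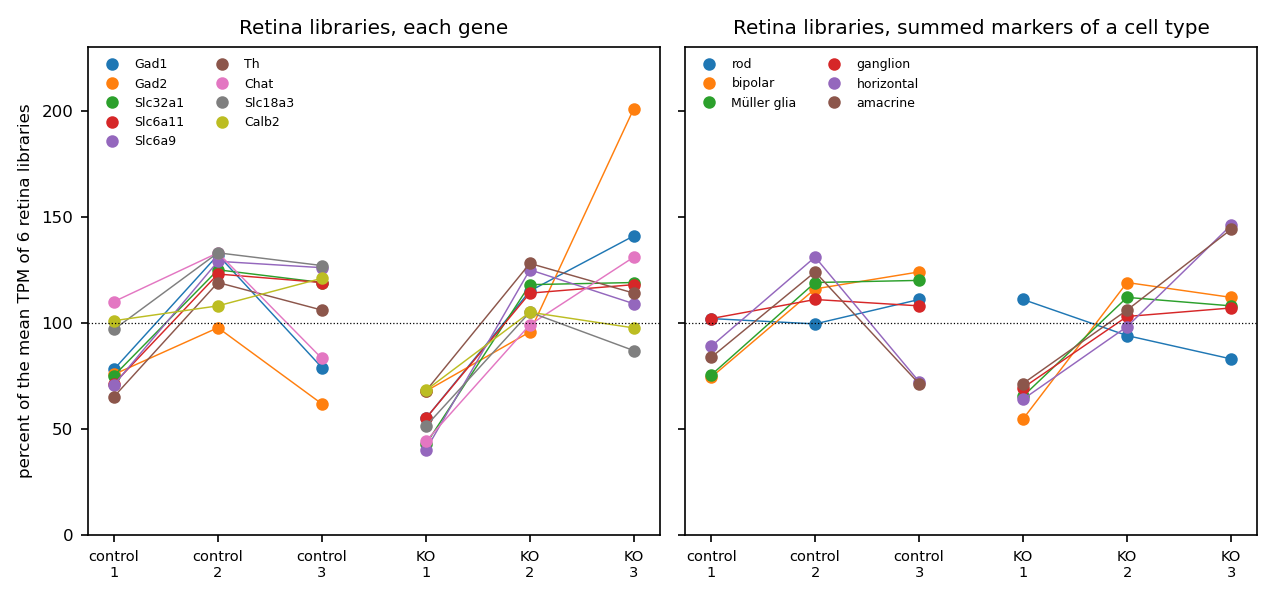
Level in each of the 6 retina libraries (x axis) as a percent of the mean TPM of the 6 (y axis), for each of the 9 genes (left) and for the summed markers of 6 cell types (right), with lines that join libraries of a genotype for legibility and imply no order. Abca4 KO replicate 1 is at 40.1% to 68.2% for the 9 genes, and Gad2 reaches 201% in Abca4 KO replicate 3.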

How the data were processed

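Members and gene lists were chosen with earlier results of these data known. RNA of 12 libraries (5 ng of lysate, 10 ng of TRAP) was converted with a low-input kit. Per the submitters' processing notes, GRCm39, CASAVA 1.8.2, HISAT2, DESeq2 and edgeR were used, with no roles given. The authors deposited a score, called scaled count here, of read counts multiplied to a common total within a fraction, and TPM to 1 decimal. Depth per library is therefore not known from the totals.

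A trimmed mean of M values (trims 0.3 and 0.05) set the library scaling, and genes with at least 10 scaled counts in at least 3 libraries were fitted as log2(CPM + 0.5) with limma 3.58.1 (trend, robust) in R 4.3.3, two-sided, Benjamini-Hochberg over all genes, threshold 0.05. Only the genotype fits were run on simulated data. The fraction fits, the interaction and changes in genes near 0 were not simulated, so the simulation is no support for them. Percent intervals are exact (Clopper-Pearson, 95%), from scipy 1.17.1. The same-numbered rod TRAP and retina libraries deviated together weakly (r = 0.27, 0.20 and 0.16 in control and 0.43, 0.21 and 0.37 in Abca4 KO). Libraries with different numbers were not compared in this way, so the pairing is likely but not shown. The main fits left it out, and the replicate block was an alternative.

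Named genes were, from each list, the 3 with the highest TPM in control retina and the highest and lowest control fraction difference, and the 5 genes most like the members, though not every gene the rule selects is reported here. Alternatives changed scaling, filter, pseudocount, table, moderation, block and libraries. Promoters came from RefSeq GRCm38.p6. No coordinates of the authors' build are given.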

Additional observations from a re-analysis of the deposited data

How the results depend on the processing

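In both fraction comparisons each of the 9 genes kept its direction and its limma adjusted p under 0.05 in every alternative in which it was tested. Gad2, Slc32a1, Th, Chat and Slc18a3 passed the main filter through retina alone. Wherever retina alone carried them through a filter, their lower value was required and is no support. Leaving out 1 library gave 6 to 9 genes lower in rod TRAP in control and 5 to 9 in Abca4 KO. It was 5 without each of the Abca4 KO retina replicates 1, 2 and 3, because only 5 genes then passed the filter. Without both Abca4 KO replicate 3 libraries, at 10 scaled counts in at least 2 libraries (chosen after seeing the data), it was 9. With the authors' totals and no further scaling, the median of all genes shifted by -0.59 in control and -0.49 in Abca4 KO, and the percent of calls that were higher went from 48.6 to 26.3 and from 47.4 to 22.6. With the replicate block 9 genes were lower in each genotype and the block changed no call. Between genotypes same-numbered libraries did not deviate together (r = -0.07, 0.01 and -0.10 in rod TRAP and -0.01, -0.26 and -0.39 in retina), and 0 of the 9 genes were called in any alternative, the replicate block included.

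Several small genotype differences changed sign. In rod TRAP, leaving out 1 library moved Slc6a9 between -0.05 and 0.055 and Calb2 between -0.36 and 0.063. In retina it moved Gad1 between -0.106 and 0.313, Slc32a1 between -0.512 and 0.018, Slc6a11 between -0.355 and 0.057, Slc6a9 between -0.558 and 0.03 and Th between -0.125 and 0.324. In the interaction it moved Slc32a1 between -0.338 and 0.222, Slc6a9 between -0.091 and 0.528, Th between -0.299 and 0.128 and Calb2 between -0.149 and 0.321. With replicate 1 left out of all groups (chosen after seeing the data), Slc6a9 in rod TRAP was 0.012, Th in retina -0.033, and the interaction -0.072 for Slc32a1 and -0.13 for Calb2. The interaction of Slc32a1 was -0.026 with median-of-ratios scaling and -0.09 with log2(CPM + 0.1), and that of Chat was -0.005 with log2(TPM + 1). The causes were not tested. Over all genes, calls numbered 148 between genotypes in rod TRAP and 30 to 594 over the alternatives, with 594 without Abca4 KO rod TRAP replicate 1 and 36, 30 and 33 without control rod TRAP replicates 1, 2 and 3. In retina they numbered 18 and 1 to 62, with 1 without Abca4 KO retina replicate 1 or control retina replicate 3, 4 without Abca4 KO retina replicate 2 and 62 with all 12 libraries in 1 fit. By CPM in place of TPM, 3 of the 9 genes held the same rank in control retina.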

Other observations

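In Abca4 KO the related lists again lay mostly lower in rod TRAP than in retina. Of all genes tested there, 33.7% were lower and 30.4% were higher. Of 24 GABA and glycine receptor genes tested, 23 were lower and 1 was higher, and 13 of the 24 passed the filter through retina alone, which fixed their direction. Of 15 acetylcholine partners, 11 were lower, 1 was higher and 3 were not called, with 8 of the 15 tested through retina alone. Of 16 amacrine transcription factors, 14 were lower, 1 was higher and 1 was not called, with 10 of the 16 tested through retina alone. Between genotypes in retina, the 26 receptor genes tested had a median log2 difference of 0.38 against -0.02 for all genes, with 0 called and 3 at an unadjusted p under 0.05, which 12.0% of all genes had. The 16 amacrine transcription factors had a median of 0.27 with 0 called and 1 at an unadjusted p under 0.05. Abca4 KO retina replicate 3, the library with the highest amacrine marker sum at 362.6 TPM, is among the libraries behind both medians, and its part in them was not tested.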
